A study of Mus musculus with 4 samples.

Results

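The genes described here are Smarcc1, Pabpc1, Ep300, Sf3b4 and Pkm, which encode proteins reported to be methylated by, or to work with, Carm1. They were taken by symbol (SMARCC1, PABPC1, EP300, SF3B4 and PKM in the tables, which use capitals), and all 5 were present in both tables, among 3112 genes listed at the transcription start site (TSS) and 3030 at the transcription end site (TES). They come from mNET-seq, which sequences nascent RNA: nuclease-cut chromatin is put to an antibody against RNA polymerase II (Pol II), and the short transcript pieces inside the captured enzyme are read. The cells were B16F10, an established mouse melanoma line, either parental (control, labelled WT) or knocked out for Carm1 (Carm1 KO). Of each, 1 library was made with an antibody to Pol II phosphorylated on serine 2 of its tail (Ser2P) and 1 with the antibody 8WG16 to the tail itself. How the knockout was made, and whether the cells are 1 clone or a pool, is not given in the sources used here.

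Carm1 places asymmetric dimethyl marks on arginines of histone H3 and of proteins that work in transcription and RNA processing. Ser2P is placed on Pol II as it elongates and accumulates towards gene ends, where it helps to recruit factors for splicing and 3′ processing. The values below are ratios of Ser2P signal at the genes that encode reported Carm1 partners, and not amounts of transcription. They do not measure the methylation of the proteins.

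Each table gives 1 Ser2P ratio per gene and condition, a quotient of Ser2P signal and a divisor that the file leaves unnamed. A change may therefore lie in either of them. The 3 sets of cells per condition were pooled before immunoprecipitation, so no spread between replicates exists, no p-value is given, and every order of values below stands without an error. Read depth is unknown. Of 7 melanocyte marker genes, 5 are listed in at least 1 table (Pmel, Tyr, Tyrp1, Mlana and Sox10), and Mitf and Dct are not among them. The rule by which a gene is listed is not given, so a listing does not give the level of its transcription. Carm1 itself was not analysed here, so there is no check of the knockout. Most genes had a higher ratio in Carm1 KO cells, with a median log2(Carm1 KO / control) of 1.17 at the TSS and 0.85 at the TES. A scale factor between libraries and a change at most genes cannot be told apart, so each change is also given relative to that median. A change counts as past the threshold at 1.5-fold, or 0.58 on the log2 scale.

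The genes lie on 3 chromosomes and differ widely in length (GRCm38, GENCODE M21). Smarcc1, whose protein is a core scaffold subunit of the SWI/SNF (BAF) chromatin remodeller, spans 110117708 to 110240178 on the plus strand of chromosome 9 (122471 bp), and its coding transcripts in the GENCODE basic set begin from 110131980. Ep300, the gene of the histone acetyltransferase p300, spans 81585351 to 81652077 on the plus strand of chromosome 15 (66727 bp). Pabpc1, the gene of the main cytoplasmic poly(A)-binding protein, lies on the minus strand of the same chromosome, from 36595661 to 36609668 (14008 bp). Pkm, the gene of muscle-type pyruvate kinase, spans 59656368 to 59679375 on the plus strand of chromosome 9 (23008 bp). Sf3b4, which encodes a subunit of the SF3b part of the U2 small nuclear ribonucleoprotein, is the shortest, from 96172332 to 96177564 on the plus strand of chromosome 3 (5233 bp).

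The sequence upstream of the start is shown for 1 gene of each kind of pattern described below: Smarcc1, with a large change at the start, and Pkm, with a small one. RefSeq start windows (GRCm38.p6) matched 3 of the 5 genes (Smarcc1, Ep300 and Pkm), and only the bases of each window before its first overlap with an annotated exon of the gene are printed, which leaves 206 for Smarcc1, 42 for Pkm and none for Ep300. The Smarcc1 piece lies before the coding transcripts of the basic set, but inside the annotated gene. The pieces are chr9:110131774-110131979 and chr9:59656326-59656367, plus strand, 5′ to 3′. Capitals mark matches on either strand to the TATA box (letters TATAAA), the CCAAT box (its name gives its letters), the GC box (letters GGGCGG) or the core of ETS factor sites (letters CGGAAG).
Smarcc1: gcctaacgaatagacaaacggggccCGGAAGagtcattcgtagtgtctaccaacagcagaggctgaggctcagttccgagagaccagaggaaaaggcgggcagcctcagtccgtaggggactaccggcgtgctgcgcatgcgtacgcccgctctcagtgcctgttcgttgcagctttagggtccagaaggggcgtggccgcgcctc
Pkm: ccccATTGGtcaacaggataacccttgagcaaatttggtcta
The Smarcc1 piece holds 1 ETS core, which 9.77% of 32851 RefSeq windows hold in the same 206 positions. Its GC content is 61.7%, against a median of 51.9%, and it holds 17 CpG sites. The Pkm piece holds 1 CCAAT box, here as its reverse complement, which 5.82% of windows hold in the same 42 positions, and its GC content is 45.2%. No match to the other motifs lay in these pieces, and a match describes letters only.

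The 5 genes lay on both sides of the typical gene, and the 3 with the larger changes at the start had the smaller ones at the end. At the TSS the ratios of Ep300, Smarcc1 and Pabpc1 were 3.98, 3.79 and 3.62 times as high in Carm1 KO as in control cells, whereas those of Sf3b4 and Pkm were 1.45 and 1.38 times as high. At the TES Pkm and Sf3b4 came first: they were 2.27 and 2.18 times as high, Smarcc1 1.79 and Pabpc1 1.56 times, and Ep300 was 1.21 times as high in control as in Carm1 KO cells. Thus 3 of the 5 genes passed the threshold upwards at the TSS and 4 at the TES, and none passed it downwards at either end. Of all compared genes, 71.2% passed it upwards and 5.6% downwards at the TSS, and 66.7% and 7.13% did at the TES, so these counts are near the background.

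At the gene start, the ratio of Ep300 went from 0.120 in control cells to 0.479 in Carm1 KO cells, a log2 change of 1.99. By this change it ranked 618 of 2859 compared genes (percentile 78.4). Its level moved from rank 1042 to rank 671 of the 3112 listed genes, counted from the highest. Ep300 was thus above the median gene in control cells (0.0809) and above the upper quartile in Carm1 KO cells (0.368).

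The TSS ratio of Smarcc1 was 0.0377 with Carm1 and 0.143 without it, a log2 change of 1.92 at rank 681. The control value lay under the lower quartile of all genes (0.0422), and the Carm1 KO value lay under the median (0.166), so the level of Smarcc1 stood at percentile 21.8 and then 43.8. Its Carm1 KO value is coarse, since 7 other genes hold exactly the same one.

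Pabpc1 had the lowest TSS ratio of the 5 genes in both conditions, 0.0236 in control and 0.0852 in Carm1 KO cells, a log2 change of 1.85 at rank 740. Its level stood at percentile 12.7 in control and 25.7 in Carm1 KO cells. Ep300, Smarcc1 and Pabpc1 thus began from very different levels and had changes within 0.14 of each other on the log2 scale.

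Sf3b4 and Pkm began from high TSS ratios. The ratio of Sf3b4 was 0.165 in control cells and 0.240 in the knockout, a log2 change of 0.54 at rank 2076, just inside the threshold. That of Pkm was 0.207 and 0.286, a log2 change of 0.47 at rank 2137. As other genes moved further, Sf3b4 passed from percentile 76.2 to 64.3 of the levels and Pkm from 80.8 to 69.1.

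In control cells the order of TSS ratios was Pkm, Sf3b4, Ep300, Smarcc1, Pabpc1, with the highest 8.78 times the lowest. In Carm1 KO cells Ep300 came first, the order of the other 4 was kept, and the highest ratio was 5.63 times the lowest. The Carm1 KO value of Ep300 is 2 times that of Sf3b4 to 10 digits, another sign that values fall on coarse steps. The plot of ratios by condition shows these crossings.

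**Figure D1:**
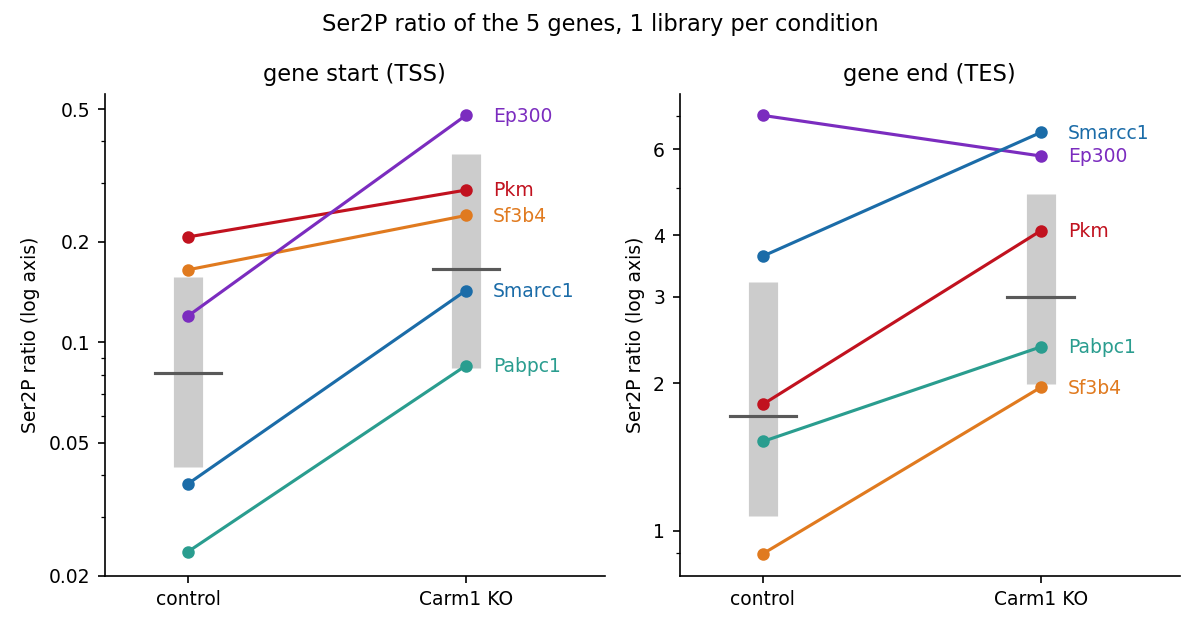
Ser2P ratio (log axis) of the 5 genes in control and Carm1 KO cells at the gene start (left) and the gene end (right), 1 library per condition. Grey bars span the quartiles of all listed genes and the short lines mark their medians. Ep300 crosses above Pkm and Sf3b4 at the start, and is the 1 gene with a lower ratio in Carm1 KO cells at the end.

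Relative to the median of all genes at the TSS, the changes were 0.83 for Ep300, 0.75 for Smarcc1, 0.69 for Pabpc1, -0.63 for Sf3b4 and -0.70 for Pkm. All 5 genes then passed 1.5-fold, 3 upwards and 2 downwards. On this scale 28.6% of all compared genes passed upwards and 28.8% downwards. The same 3 genes were above the median and the same 2 below it among genes of like level (10 groups of equal number by mean ratio), but Ep300 then came after Smarcc1 and Pabpc1. Smarcc1 stood at percentile 84.6, Pabpc1 at 82.2, Ep300 at 64.0, Sf3b4 at 26.6 and Pkm at 16.1. None was thus among the extreme genes of its level.

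At the gene end, Ep300 stood out among the 5 by its high control ratio. Its TES ratio was 7.03 in control cells, rank 135 of 3030 (percentile 95.5), and 5.81 in the knockout, rank 547. Its log2 change was -0.28, inside the threshold, at rank 2683 of 3016. Relative to the median of all genes this was -1.13, and 22% of all genes were at least 1.5-fold lower and 11.6% higher on that scale. The control value is held by 2 other genes.

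The TES ratio of Smarcc1 was 3.63 in control cells and 6.49 in the knockout, with a log2 change of 0.84, which is the change of the median gene within 0.01. In Carm1 KO cells it had the highest TES ratio of the 5 genes. Pabpc1 had ratios of 1.52 and 2.37, a log2 change of 0.64 at rank 1924. It passed the threshold as deposited, but lay 0.21 below the median gene.

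The TES ratio of Sf3b4 was 0.897 in control cells and 1.96 in the knockout, the lowest of the 5 in both conditions, with a log2 change of 1.12 at rank 858. That of Pkm was 1.81 and 4.09, a log2 change of 1.18 at rank 743. They lay 0.27 and 0.33 above the median gene, inside the threshold on that scale. Relative to the median, Ep300 alone of the 5 was thus past 1.5-fold at the TES, where 33.6% of all genes were past it in either direction.

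**Figure D2:**
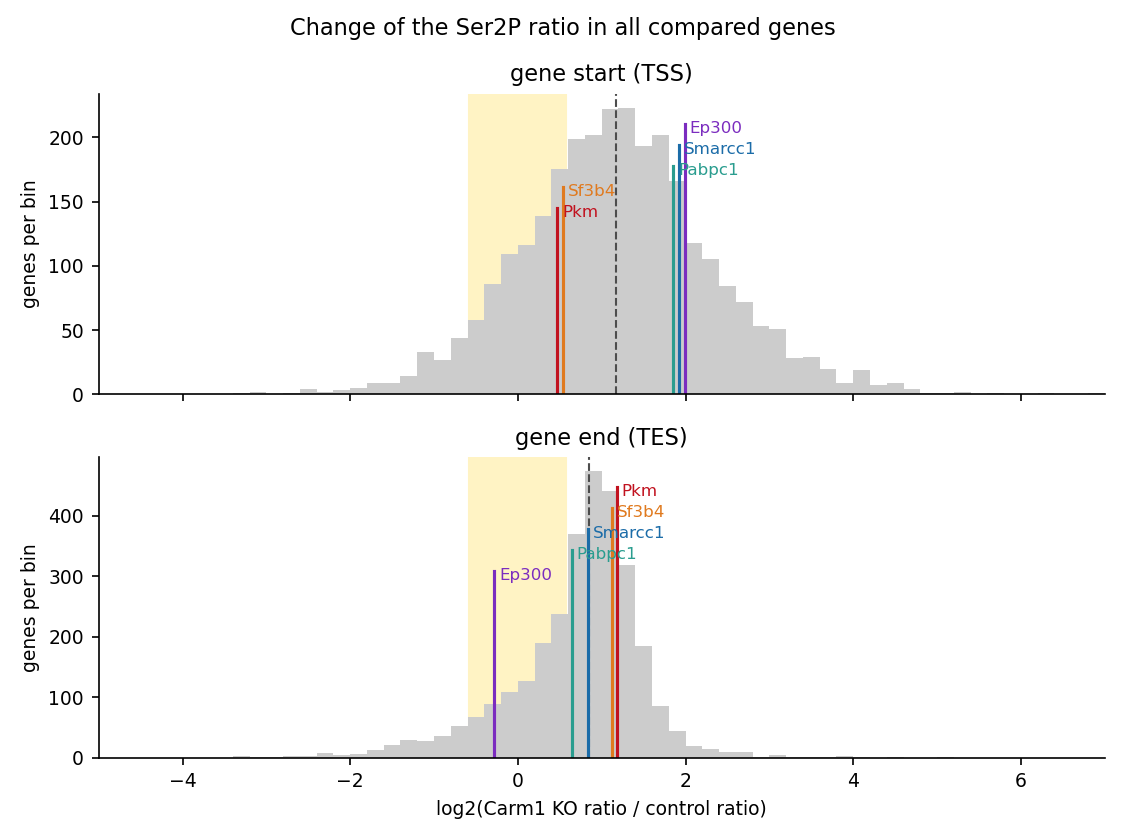
Number of genes by log2(Carm1 KO / control) of the Ser2P ratio at the gene start (2859 genes) and the gene end (3016 genes), in bins of 0.2, with the 5 genes as coloured lines. The dashed line marks the median of all genes and the shaded band changes under 1.5-fold. Ep300, Smarcc1 and Pabpc1 lie to the right of the median at the start, and Ep300 lies far to its left at the end.

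The TES change of all genes depended on gene length, and the 5 genes lie in different groups when all genes are split by length into 10 equal groups. In the longest of these, from 77014 bp, the median TES change was -0.09, and Smarcc1 with 0.84 ranked 46 of 299 genes there (percentile 84.6). Ep300 belongs to the next group, with a median of 0.22 and 298 genes, and ranked 211. Its TES change was thus low for its length, at percentile 29.2, but less so than among all genes, where it stood at percentile 11.0.

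Pabpc1 was in a group with a median of 1.00, from 13046 to 18226 bp, and ranked 240 of 299 (percentile 19.7), further down than among all genes (36.2). Sf3b4 (percentile 74.5) and Pkm (67.4) kept places above the median of their groups. At the TSS, places within the length group were close to those among all genes: 77.7 for Smarcc1, 76.0 for Pabpc1, 70.3 for Ep300, 28.6 for Sf3b4 and 21.3 for Pkm.

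The TES ratio divided by the TSS ratio compares the 2 ends of a gene within 1 condition. As the divisor of the ratios is unnamed, this quotient may reflect Ser2P signal, the divisor or both. A scale factor of a library that is equal at both ends cancels when this quotient is compared between conditions. In control cells the quotient was 96.3 for Smarcc1, 64.7 for Pabpc1 and 58.4 for Ep300, against 19.5 for the median of 2775 genes, and 8.74 for Pkm and 5.44 for Sf3b4. By this quotient, the first 3 genes were steep and the other 2 shallow in control cells.

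In Carm1 KO cells the quotient was 45.5 for Smarcc1, 27.9 for Pabpc1 and 12.1 for Ep300, each below its control value, and 14.3 for Pkm and 8.16 for Sf3b4, each above it. The median of all genes was 15.7. The 3 steep genes were thus shallower without Carm1 and the 2 shallow genes steeper, and the 5 quotients spanned a narrower range. Ep300 passed from percentile 76.6 to 42.2 of all genes and Pkm from 28.2 to 47.2. The control ratios enter both the starting quotient and its change, so these are not independent of each other.

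The shift, the TES change minus the TSS change on the log2 scale, was -2.27 for Ep300, -1.21 for Pabpc1 and -1.08 for Smarcc1, and 0.58 for Sf3b4 and 0.71 for Pkm. Ep300 ranked 2486 of 2775 genes (percentile 10.4), and Pkm ranked 484 (82.6). By 1.5-fold, Ep300, Pabpc1 and Smarcc1 were past the threshold downwards, Pkm upwards, and Sf3b4 just under it. Of all genes 44.2% were past it downwards and 19.8% upwards, with a median shift of -0.40.

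Gene length bears on these places too. The length group that holds Smarcc1 had a median shift of -1.24, so Smarcc1 lay 0.16 above it, at percentile 54.9. Ep300 lay below the median of its group (-1.15) at percentile 20.8, and Pabpc1 below that of its own (-0.14) at percentile 17.1. Sf3b4 and Pkm lay above theirs, at percentiles 77.0 and 82.5.

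**Figure D3:**
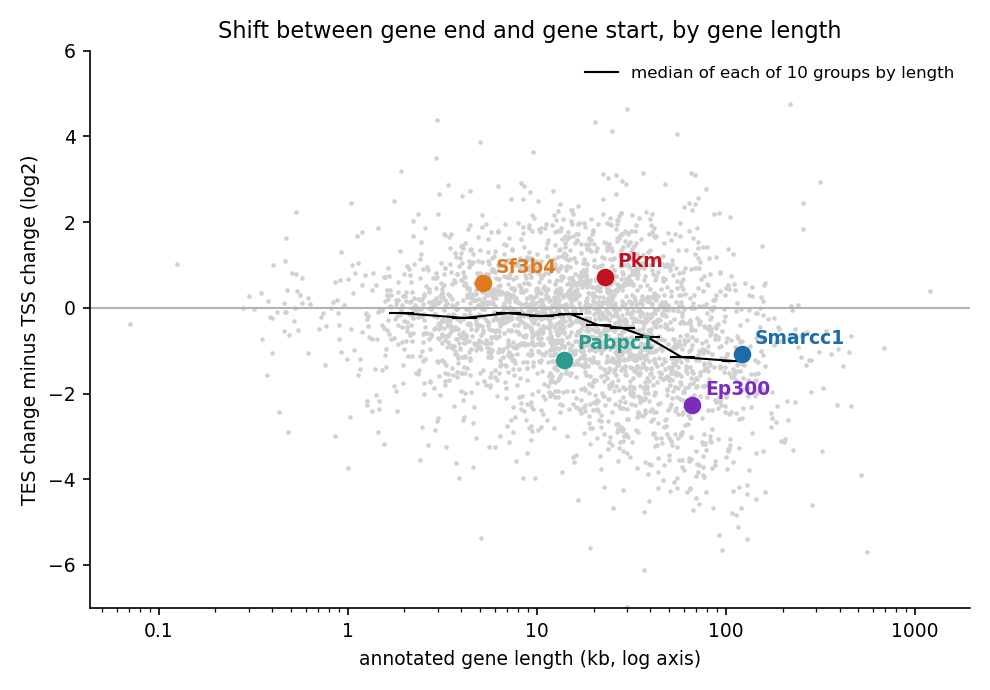
Shift (TES change minus TSS change, log2) against annotated gene length (kb, log axis), with grey points for genes compared at both ends and the black line for the median of each of 10 groups by length. Smarcc1 lies near the line at long lengths, Ep300 and Pabpc1 below it, and Sf3b4 and Pkm above it.

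Over both ends, Ep300, Smarcc1 and Pabpc1 were above the median change at the TSS and below it at the TES, as were 24.4% of 2775 genes. Sf3b4 and Pkm were below it at the TSS and above it at the TES, as were 24.1%. None of the 5 was above or below the median at both ends, where 25.9% and 25.6% of genes lay. Smarcc1 was below the TES median by only 0.01, so its place there is marginal.

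**Figure D4:**
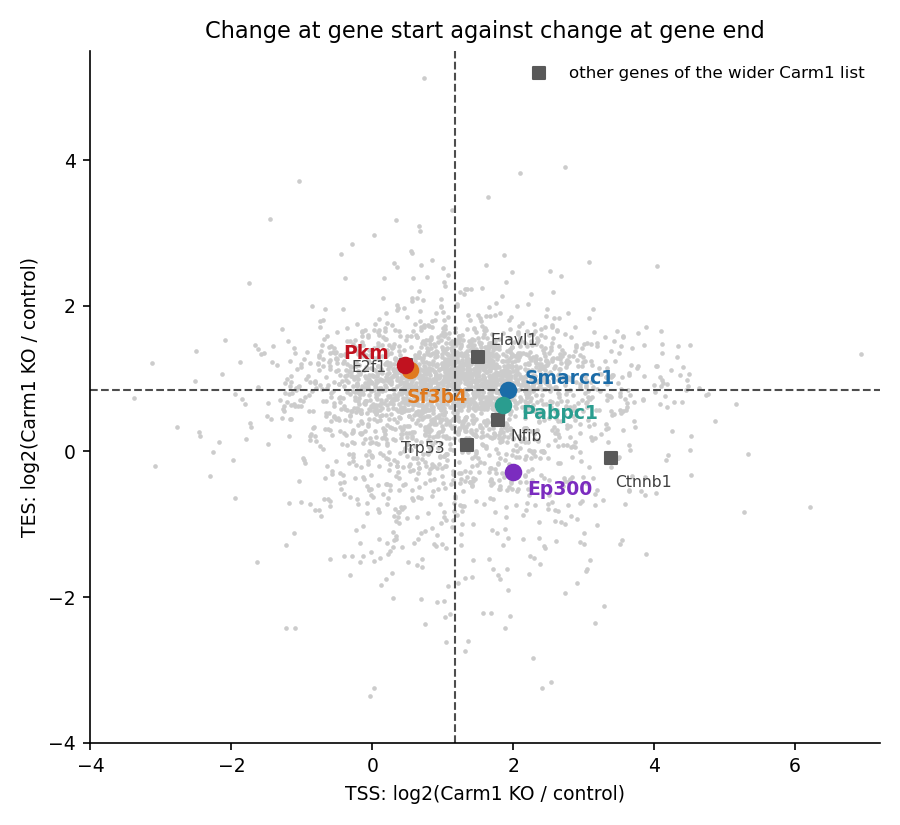
TSS change against TES change, log2(Carm1 KO / control), for 2775 genes (grey), the 5 genes (coloured) and 5 other genes of reported Carm1 partners (dark squares). Dashed lines mark the medians at each end. The square of E2f1 lies under the point of Pkm. Ep300, Smarcc1 and Pabpc1 lie in the lower right part and Sf3b4 and Pkm in the upper left.

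Other genes lie near some of these starts and ends. Counting annotated gene ends within 1000 bp of the first coding start in the basic set, Sf3b4 has that of Mtmr11, on the same strand at 614 bp, and the antisense gene Gm17690 overlaps its start. Ep300 has the predicted miRNA gene Gm23880 inside its first part, with its end at 789 bp, and 1110025M09Rik begins 369 bp upstream on the opposite strand. Dhx30, on the opposite strand, overlaps the annotated start of Smarcc1, but not those coding starts. No such end lies near the first coding starts of Smarcc1, Pabpc1 or Pkm, and Gramd2 begins 769 bp beyond the end of Pkm. The part of reads from these neighbours in the ratios was not tested.

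Processed copies could also share reads. Against all GENCODE transcripts, at 95% identity over at least 100 nt, Ep300 had 0 similar genes, and Smarcc1, Pabpc1 and Sf3b4 had 1 pseudogene each. Pkm had 2 similar genes, 1 of them a pseudogene (Gm6560, 98.4% identical over 1593 nt). The other, Gm49759 (95.5% identical over 201 nt), lies inside Pkm on the same strand, so it is not a copy elsewhere. The copies of Sf3b4 (Gm7935) and Pkm (Gm6560) begin at nt 243 and 296 of the transcript, so just inside its first 300 nt. None of the similar genes reaches into the last 300 nt. The part of reads from such copies in the ratios was not tested.

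Genes with similar profiles were found by Euclidean distance over the 4 log2 ratios (control and Carm1 KO at both ends) among 2554 other genes. Nearest to Ep300 was Rapgef6 (distance 0.199), with TSS ratios of 0.123 and 0.512 and TES ratios of 7.74 and 5.40, followed by Klhdc4 and Btbd10 (0.447 and 0.603). Ep300 had the fewest close neighbours, 28 genes within a distance of 1, against 56 for Pabpc1, 68 for Pkm, 108 for Smarcc1 and 123 for Sf3b4. Nearest to Sf3b4 was the ribosomal protein gene Rpl6 (0.182), with TSS ratios of 0.162 and 0.240, then Plekhj1 and Hmgb1. Kntc1 (0.205), Ppp2r1a and Rcc1l were nearest to Smarcc1, Unc50 (0.363), Ccnl1 and L3hypdh to Pabpc1, and Odr4 (0.295), Alkbh1 and Cct7 to Pkm. Among the 5 genes themselves the closest pair was Sf3b4 and Pkm (1.52) and the farthest Pabpc1 and Ep300 (4.28).

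A wider list of 30 genes of reported Carm1 substrates, coactivators, partners and readers gave 7 genes with values used here. At the TSS 6 could be compared, with a median change of 1.42 against 1.17 for all genes, and 5 of them were at least 1.5-fold higher and 0 lower, near the 71.2% and 5.6% of all genes. The largest change was at Ctnnb1, the gene of beta-catenin, from 0.00302 to 0.0315 (log2 change 3.38, rank 110). The smallest were at E2f1, a cell cycle transcription factor gene (0.48), and at the glycolytic gene Gapdh (0.91). Nfib (1.79), Elavl1 (1.5), which encodes the RNA-stabilising protein HuR, and Trp53 (1.35) lay in between. Tdrd3, the gene of a reader of methylarginine, is listed at 0 in both conditions at the TSS.

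At the TES 6 genes of the wider list were compared, with a median change of 0.81 against 0.85, and 3 were at least 1.5-fold higher and 0 lower, where 66.7% and 7.13% of all genes were. These 3 were Elavl1 (from 4.11 to 10.0, log2 change 1.29), Tdrd3 (from 4.11 to 9.40, 1.19) and E2f1 (1.18). Ctnnb1 (-0.09), Trp53 (0.09) and Nfib (0.43) were inside the threshold. The values of Tdrd3 are coarse, as 9 other genes share that of control and 6 that of Carm1 KO cells.

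The shift of Ctnnb1 was -3.47, further down than that of Ep300, but it rests on the low TSS values of Ctnnb1. Trp53 (-1.26) and Nfib (-1.36) were also past the threshold downwards, and E2f1 (0.70) was past it upwards, close to Pkm. Elavl1 (-0.21) lay inside it. The Carm1 KO values of E2f1, Trp53 and Elavl1 at the TSS are coarse, as 20, 9 and 23 other genes share them. Of the 5 genes compared, 3 were thus past 1.5-fold downwards and 1 upwards, near the 44.2% and 19.8% of all genes, with a median of -1.26 against -0.40.

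Each gene was also set beside other genes of its complex or pathway. For Smarcc1, 6 of 25 other BAF and PBAF subunit genes had values. At the TSS 4 were compared, and each was at least 1.5-fold higher, as were 71.2% of all genes: Smarce1 (1.55), Bcl7b (1.41), Arid1a (1.15) and Bcl7c (1.03), all below the 1.92 of Smarcc1. Relative to the median of all genes 0 of the 4 passed, where 28.6% of all genes passed upwards and 28.8% downwards. Pbrm1 and Ss18 are listed at 0 in control cells at the TSS. The TSS values of Bcl7c are coarse, as 7 other genes share that of control and 8 that of Carm1 KO cells. At the TES 3 of 6 were higher and 1 was lower, against 66.7% and 7.13% of all genes, from Bcl7b (1.02) and Smarce1 (0.94) to Bcl7c (-0.20) and Ss18 (from 2.50 to 1.08, log2 change -1.21), with a median of 0.61. Arid1a had a higher TES level than Smarcc1 in both conditions, 7.77 in control and 12.6 in Carm1 KO cells.

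For Ep300, 4 of 18 genes of acetyltransferases and their partners had values, and Crebbp, its paralogue, was not analysed here. At the TSS Hat1 (2.18) was above Ep300 and Kat8 (1.39), Kat7 (1.26) and Kat5 (0.21) below it. At the TES all 4 were at least 1.5-fold higher, between 0.63 at Kat7 and 1.20 at Kat8, whereas Ep300 had a change of -0.28. TES changes depended on gene length, and Ep300 (66727 bp) is longer than all 4, from Kat5 (7224 bp) to Hat1 (52665 bp). Only Hat1 (0.89) falls in the length group of Ep300, from 47797 to 76927 bp. Of all genes 66.7% were at least 1.5-fold higher. Relative to the median of all genes 0 of the 4 passed, where 33.6% of all genes passed in either direction. The TES level closest to that of Ep300 was that of Kat7 (5.27) in control cells and that of Hat1 (6.29) in Carm1 KO cells. The median shift of the 4 genes was -0.41, near the -0.40 of all genes.

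For Pabpc1, 12 of 22 genes that act at the poly(A) tail and the cap in translation had values. At the TSS their median change was 0.79, with 8 higher and 1 lower, against 71.2% and 5.6% of all genes. Eif4h, the gene of a helper of the cap-bound helicase (3.03), and Pabpn1, the nuclear poly(A)-binding protein gene (2.18), exceeded Pabpc1. At the lower end were Pan2, a deadenylase subunit gene (-0.52), and Paip2b (-2.45, from 0.0361 to 0.00661), which encodes an inhibitor of poly(A)-binding protein. Both had Carm1 KO values under the lower quartile of all genes (0.0837). The TES control value of Paip2b is coarse, as 20 other genes share it. At the TES all 12 were above 0 and 10 were at least 1.5-fold higher, from Paip2b (0.22) and Paip2 (0.34) to Eif4g1 (1.15) and Pan2 (1.36), with a median of 0.85, the same as that of all genes. Of all genes 84.3% were above 0 and 66.7% past the threshold upwards. Relative to the median of all genes 0 of the 12 passed upwards and 1 downwards, against 11.6% and 22% of all genes. The median shift of the 12 genes was 0.12, against -0.40 for all genes and -1.21 for Pabpc1.

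For Sf3b4, 11 of 23 genes of the U2 particle and its helpers had values. Of 10 compared at the TSS, 8 were higher and 0 lower, near the 71.2% and 5.6% of all genes, with a median of 1.58, far above the 0.54 of Sf3b4. Puf60 (3.68), Ddx42 (2.68) and Sf1 (2.66) led. The control value of Puf60 (0.0143) is low, and 4 other genes share it. Within SF3b, Sf3b1 changed by 1.27, and Sf3b6 (0.28) and Sf3b3 (-0.21) were inside the threshold. U2surp is listed at 0 in Carm1 KO cells.

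At the TES the U2 genes had a median of 0.69, with 7 of 11 higher and 1 lower, near the 66.7% and 7.13% of all genes. Sf3a2 (1.45) and Puf60 (1.19) led the list, above Sf3b4 (1.12), while Sf3b1 (-0.01) was inside the threshold and Sf3b6 changed from 0.565 to 0.178 (-1.67). Of the 10 genes with a shift, 7 were past 1.5-fold downwards, and Sf3b3 (1.04) was the only one past it upwards, where 44.2% and 19.8% of all genes were. Sf3b4 thus had the sign of shift of Sf3b3 and not that of most of the list.

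For Pkm, 12 of 25 genes of glycolysis and its transporters and outlets had values, Gapdh among them again. At the TSS their median change was 0.32, below the 1.17 of all genes and near the 0.47 of Pkm, with 5 higher and 1 lower, against 71.2% and 5.6% of all genes. Pfkfb4 (1.67) and Eno1 (1.37) were at the upper end. Ldha, the gene of lactate dehydrogenase A, had ratios of 0.0857 and 0.0688 (-0.32), inside the threshold, and Slc16a1, a lactate transporter gene, changed from 0.0249 to 0.0104 (-1.26). Relative to the median of all genes, 7 of the 12 were at least 1.5-fold lower at the TSS and 0 higher, against 28.8% and 28.6% of all genes.

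At the TES 10 glycolytic genes were compared, with a median of 1.01, 7 higher and 0 lower, near the 66.7% and 7.13% of all genes. Pfkl (1.16), Ldha (1.09), Pfkp and Pfkfb4 (1.04 each) were just below the 1.18 of Pkm, and Pgk1 (0.49) and Hk2 (-0.26) were lowest. The median shift of these 10 genes was 0.64, against -0.40 for all genes, with 6 past the threshold upwards and Pfkfb4 (-0.63) past it downwards, where 19.8% and 44.2% of all genes were. Slc16a1 (1.81), Ldha (1.41), Pfkp (1.25) and Pdhb (1.11) had larger shifts than Pkm (0.71). Some of the TSS values behind these shifts are coarse. The control value of Ldha is shared by 15 other genes and that of Pfkfb4 by 14, and the Carm1 KO value of Pfkp by 17.

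**Figure D5:**
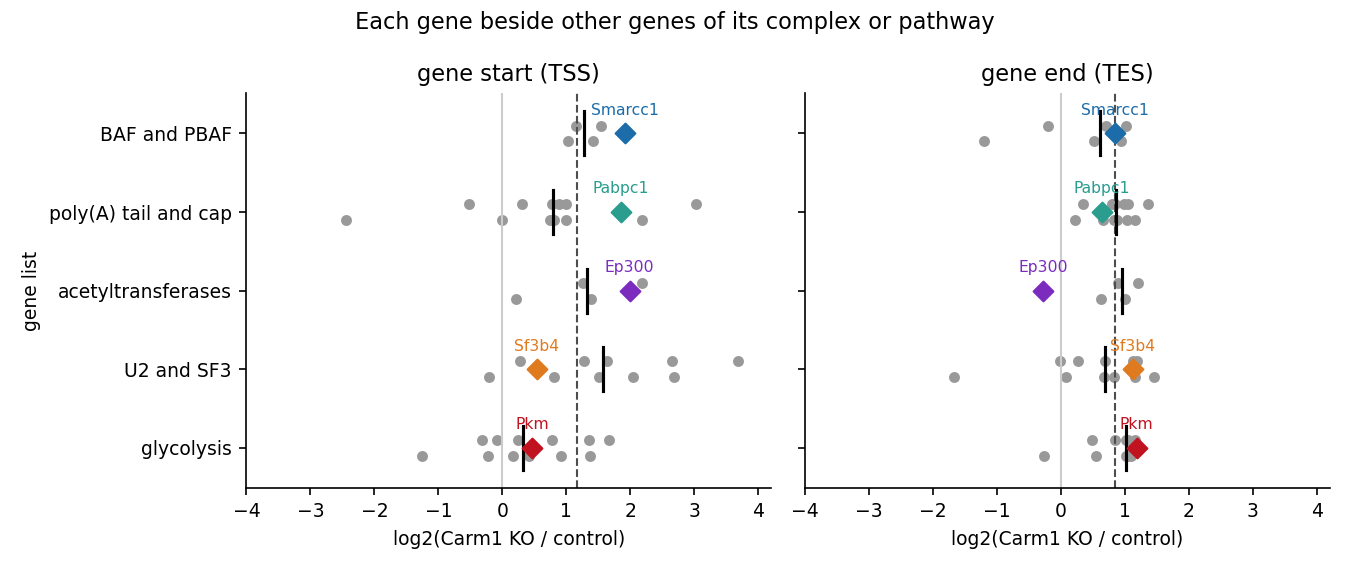
Log2(Carm1 KO / control) at the gene start (left) and end (right) of each of the 5 genes (diamonds) and of other genes of its complex or pathway (grey points), with the list's median as a black bar and the median of all genes as a dashed line. At the end Ep300 lies below all 4 acetyltransferase genes, which are shorter than it. Pkm lies near the median of the glycolytic genes at the start and above all 10 of them at the end.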

How the data were processed

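The authors deposited a linear ratio per gene and condition, which the file headers call a Ser2 fraction although it passes 1, and its difference (Carm1 KO minus control), which was not used further. Per the submitters' processing notes, tools included cutadapt 1.18 and TopHat2 2.1.1, with mm10 and GRCm38 as builds. For the divisor, windows, scaling and strand setting, no source used here gives any detail. Column names (b16 or ko, with ser2) decided which condition a value belongs to. Tables hold 0 columns of other samples.

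Changes are log2(Carm1 KO / control) without a pseudocount, so genes listed at 0 in either condition were left out. Ranks count from the highest value, and percentiles give the share of genes below. Genes were split into 10 equal groups by length or by mean ratio. Symbols matched GENCODE M21 for 98.9% of 3117 genes. Copies were sought with BLAST+ 2.17.0, and the rest was computed with Python 3.11.15 and pandas 2.3.3. With 1 library per group no test was run, depth is unknown, and no interval was computed.

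The 5 genes, the wider list and the lists of complexes and pathways were chosen with earlier results of these data known, and 1 gene first placed in the wider list is not reported here. Named genes are the 5 genes, the 3 nearest to each (leaving out predicted, RIKEN and small RNA genes), and listed genes, at least the 2 highest and lowest at each end. Alternatives were the median of all genes or of the length group subtracted, a 2-fold threshold, a pseudocount, and leaving out coarse or low values.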

Additional observations from a re-analysis of the deposited data

How the results depend on the processing

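Of 30 alternative counts (6 alternatives for each of 5 results), 22 stayed within 1.5 times of the count reported. These counts take both directions together, so a change of direction can leave a count the same. With the median of the length group subtracted, the 5 genes went from 3 higher and 0 lower to 3 and 1 at the TSS. Of all genes 57.5% then passed there in either direction. The shifts of the 5 genes past the threshold went from 1 upwards and 3 downwards to 2 and 2. Of all genes 60.5% then passed in either direction, against 64% before. With the median of all genes subtracted, the genes past 1.5-fold went from 3 to 5 at the TSS and from 4 to 1 at the TES. At the TES the log2 changes of Smarcc1 (-0.01) and Pabpc1 (-0.21) turned sign, and the gene past the threshold was Ep300 (-1.13, lower). The share of all genes past it in either direction went from 76.8% to 57.4% at the TSS and from 73.9% to 33.6% at the TES. With a 2-fold threshold 2 of the 5 passed at the TES, as did 41.9% of all genes. With the median of the same length group subtracted 1 passed at the TES, where 29.5% of all genes passed. It was Smarcc1 (0.93, higher), whereas Ep300 (-0.50) was then inside the threshold. Pabpc1 turned to -0.36 at the TES, and the shift of Smarcc1 turned to 0.16. Where genes that share a value with another gene were left out, 2 of the 5 genes remained for the shift and 1 passed, against 4. Of all genes that remained 53.9% passed. The shift of Pkm, the only one past the threshold upwards, was 0.51 and inside it with a pseudocount. Then 0 of the 5 genes passed upwards and 3 downwards, as also with a 2-fold threshold. Of all genes 61.9% passed in either direction with a pseudocount and 43.9% with a 2-fold threshold. In the wider list at the TSS, with genes of shared values left out, 2 remained and 2 passed, against 5, since fewer genes were compared. Of all genes that remained there 80.4% passed. In that list 3 passed at the TSS (2 higher and 1 lower) with the median of all genes subtracted, and likewise 3 with that of the length group. Of all genes 57.4% and 57.5% did. At the TES the direction moved though the count stayed near 3: 0 were higher and 2 lower with the median of all genes subtracted, and 2 and 2 with that of the length group. Of all genes 33.6% and 29.5% passed there in either direction. No paired analysis was possible because each group has 1 library. Depth is unknown, so what it limits cannot be given.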
